A study of Mus musculus with 10 samples.

Results

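The D-type cyclins Ccnd1, Ccnd2 and Ccnd3 were examined across 4 Mbd3 mutant lines of E14 mouse embryonic stem cells. They were taken by symbol from the authors' deposited tables and are 3 of the 8694 genes listed in at least 1 table. The family was selected on Ccnd2, which has the lowest deposited log2 fold change of all genes in the Mbd3abc KO table. Its changes from wild type and its differences from Mbd3abc KO are therefore given as a description, with no test.

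RNA was sequenced from 5 groups with 2 libraries each, which the labels call biological replicates. The wild type (WT) was the parental E14 line, grown on gelatin like the mutants, and the mutants were made in it with CRISPR/Cas9. Mbd3 belongs to NuRD, a chromatin complex with both a nucleosome remodelling ATPase and histone deacetylases, and the lines differ in which of its isoforms (a, b or c) were targeted. Mbd3ab KO (genotype Mbd3ab -/-) and Mbd3cΔN-ab KO (genotype Mbd3cdeltaN; ab-/-) carried mutations in exon 2, Mbd3c KO (Mbd3c -/-) in intron 2 and Mbd3abc KO (Mbd3abc -/-) in exon 5. The table headers give the libraries of each mutant names of their own (ABF2 and ABF3 in Mbd3ab KO, CA10 and CH9 in Mbd3c KO, ABC10D and ABCD7 in Mbd3abc KO, ABctrC2 and ABctrC5 in Mbd3cΔN-ab KO). The sources used here do not say whether these names stand for different clones. All 4 comparisons use the same WT libraries.

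D-type cyclins are the regulatory subunits that activate the kinases Cdk4 and Cdk6 in G1 phase, in response to growth factor signals. The active kinases phosphorylate the retinoblastoma (pocket) proteins, which releases E2F factors to transcribe genes for S phase. In mouse embryonic stem cells G1 is short, and entry into S phase is known to depend less on this step than in somatic cells.

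The members are separate genes on different chromosomes of mm10. Ccnd1 lies at chr7:144929931-144939925 on the minus strand, Ccnd2 at chr6:127125709-127151048 on the minus strand, and Ccnd3 at chr17:47593467-47599688 on the plus strand. The GENCODE M21 transcripts each have 5 exons and coding parts of nearly equal length, 885, 867 and 876 nt for Ccnd1, Ccnd2 and Ccnd3 without the stop codon. They differ mainly in the part after the coding sequence, which makes up 71.6% of the Ccnd1 transcript, 81.8% of Ccnd2 and 46.3% of Ccnd3. Whether reads can tell the members apart depends on how much sequence they share. The longest stretch common to any pair was 20 nt, in the coding sequences of Ccnd1 and Ccnd2. It is shown in capitals with 10 nt on each side, read from GENCODE M21 transcripts at coding positions 123 to 162 of Ccnd1 and 117 to 156 of Ccnd2, counted from the A of the start codon:
Ccnd1: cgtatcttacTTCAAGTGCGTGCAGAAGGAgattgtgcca
Ccnd2: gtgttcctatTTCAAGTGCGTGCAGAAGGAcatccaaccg
Ccnd1 and Ccnd3 shared at most 17 nt and Ccnd2 and Ccnd3 at most 14 nt, and no pair shared a stretch of 25 nt.

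The promoter table from RefSeq (GRCm38.p6) matched 1 member, Ccnd3, and none was matched for Ccnd1 or Ccnd2. The 250 bases before the Ccnd3 start, chr17:47593217-47593466 on the plus strand, are shown because Ccnd3 had the highest level per length of the members in WT and fell in both lines in which it was listed. Capitals mark, from left to right, a CCAAT box, a GC box (GGGCGG, here on the opposite strand) and the half-site TGACG of a cyclic AMP response element:
Ccnd3: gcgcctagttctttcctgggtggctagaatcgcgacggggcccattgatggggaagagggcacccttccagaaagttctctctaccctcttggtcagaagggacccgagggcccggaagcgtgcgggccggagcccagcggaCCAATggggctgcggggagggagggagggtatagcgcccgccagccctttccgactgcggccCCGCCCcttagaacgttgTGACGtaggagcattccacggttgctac
Both strands were searched, each match occurs once and none overlaps another. The same letters occur in 33.8%, 32.7% and 17.7% of 32817 promoter windows of this length. The letters CACGTG (E-box), TTTCCCGC and TTTGGCGC (E2F sites) and CTTTGA (TCF/LEF core) were not in the window. It holds 19 CpG dinucleotides, against a median of 6, and 19.7% of windows hold as many. A match describes the letters and is not a measured site.

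The tables list only genes that the authors had selected, so a member missing from a table has no value there. Mbd3 RNA itself was lower in Mbd3ab KO (2.61-fold), Mbd3abc KO (13.0-fold) and Mbd3cΔN-ab KO (5.57-fold) and was not listed in Mbd3c KO. Relative to the first WT library, the libraries held 0.485 to 1.59 times as many reads, and absolute totals are unknown. Levels below are recovered reads divided by a size factor, called normalized reads, and are comparable only within a table. Between mutants another scaling was used, as stated there. Members of the family were listed in 3 of the 4 tables: Ccnd1 and Ccnd2 in Mbd3ab KO, all 3 in Mbd3abc KO and Mbd3cΔN-ab KO, and none in Mbd3c KO. Every listed member was called lower at the authors' adjusted p of 0.05. Of all genes tested, 3.35% were called in Mbd3ab KO (1.3% lower, 2.05% higher), 0.353% in Mbd3c KO (0.0372% lower, 0.316% higher), 52.1% in Mbd3abc KO (24.9% lower, 27.1% higher) and 41.5% in Mbd3cΔN-ab KO (20.4% lower, 21.1% higher). Since the choice of Ccnd2 rests on these contrasts, nothing is read from the count against these shares. Mutant and WT groups that do not overlap are described below for each member. The share of all listed genes without overlap was not counted, and selecting genes for a difference from WT favours such separation. In bulk RNA, fewer cells with a transcript and less of it per cell cannot be told apart.

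Ccnd2 was nearly undetected in Mbd3abc KO. The libraries had 444 and 472 normalized reads in WT and 2.90 and 5.73 in the mutant, the latter from 3 and 6 reads. The means were 458 ± 19.9 and 4.31 ± 2.00 (SD, n = 2 each), a 106-fold difference. Both mutant libraries were far below both WT libraries. In the authors' deposited table the log2 fold change, which DESeq2 shrinks toward 0, was -6.04 ± 0.39 (SE), the first of 8141 genes in order of fall. The next in that order, just outside the rule, were Rnh1, a ribonuclease inhibitor, at -5.76 and Lef1, a transcription factor of Wnt signalling, at -5.40 in the same table. By the ratio of means, without shrinkage, Ccnd2 was number 20 in the order of fall.

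In Mbd3ab KO Ccnd2 stood at 381 and 410 normalized reads in WT and at 2.45 and 25.6 in the mutant, the latter from 3 and 17 reads. The groups did not overlap, yet the mutant libraries differed 10.4-fold from each other. Of 437 genes with enough reads Ccnd2 had the largest such difference, against a median of 1.27-fold. The mutant mean was 28.2-fold below that of WT, 396 ± 20.7 against 14.02 ± 16.4 (SD, n = 2 each). Ccnd2 was also first of 443 genes here by the authors' deposited log2 fold change, -2.80 ± 0.41 (SE). The fold was 161 without the second mutant library and 15.5 without the first.

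Mbd3cΔN-ab KO kept the most Ccnd2 RNA of the 3 lines, in 1 library. Levels were 422 and 451 normalized reads in WT and 12.0 and 129 in the mutant, from 10 and 152 reads. The mutant libraries lay 10.7-fold apart, a difference that 3 of 5949 genes reached, Ccnd2 included, against a median of 1.18-fold. Means of 436 ± 21.1 and 70.4 ± 82.5 (SD, n = 2 each) gave a 6.20-fold difference, with both mutant libraries below both WT libraries. The fold was 36.3 without the second mutant library and 3.39 without the first. By the authors' deposited log2 fold change, -1.51 ± 0.53 (SE), Ccnd2 was number 179 of 6000 genes in order of fall, and by the ratio of means it was number 60. A DESeq2 refit of the listed genes did not call it in this line, while limma and edgeR refits did. Calls of Ccnd2 are given as a description and not as a test.

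**Figure D1:**
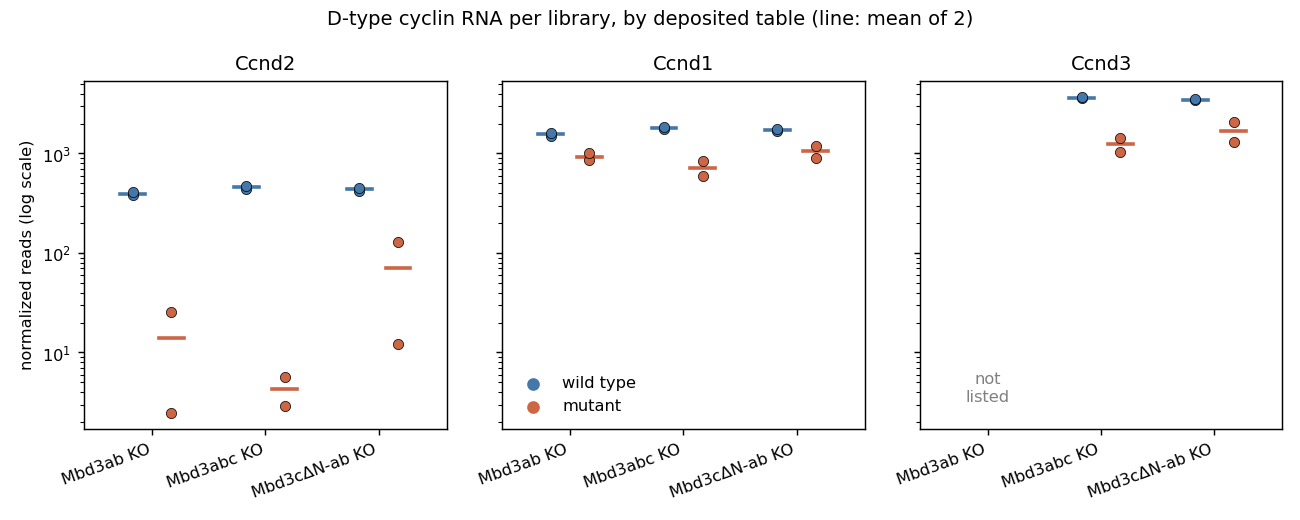
Normalized reads per library (points, log scale) of Ccnd2, Ccnd1 and Ccnd3 in WT and mutant in the 3 tables that list a D-type cyclin, with a line at the mean of 2 libraries. Every mutant point lies below the WT points of its table, a separation that was not counted over all listed genes. The mutant points of Ccnd2 are far apart in Mbd3ab KO and Mbd3cΔN-ab KO.

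Ccnd1, the D-type cyclin best known as a target of mitogen and Wnt signals, fell in the same 3 lines by a smaller factor. In Mbd3abc KO it went from 1761 and 1833 normalized reads in WT to 595 and 833. The mutant mean of 714 ± 168 was 2.52-fold below the WT mean of 1797 ± 51.2 (SD, n = 2 each), with no overlap between the groups. The authors' deposited table lists a DESeq2 log2 fold change of -1.30 ± 0.22 (SE), with adjusted p = 4.50e-08. That placed Ccnd1 at number 1230 of 8141 genes in order of fall.

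In Mbd3ab KO Ccnd1 had 1511 and 1593 normalized reads in WT and 853 and 1007 in the mutant. Means of 1552 ± 58.3 and 930 ± 109 (SD, n = 2 each) gave a 1.67-fold fall without overlap. The authors' deposited table gives a DESeq2 log2 fold change of -0.70 ± 0.19 (SE), with adjusted p = 0.00925. This call was lost in refits of the listed genes, with adjusted p = 0.125 by limma, 0.102 by edgeR and 1 by DESeq2 without either WT library, while the direction held.

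In Mbd3cΔN-ab KO the Ccnd1 libraries stood at 1671 and 1752 normalized reads in WT and 906 and 1191 in the mutant. The fall from 1712 ± 57.3 to 1048 ± 201 (SD, n = 2 each) was 1.63-fold, again without overlap. The DESeq2 log2 fold change in the authors' deposited table was -0.68 ± 0.19 (SE), with adjusted p = 0.00169. Without a WT library the DESeq2 refit gave adjusted p = 0.110 or 0.162.

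Ccnd3, the member with broad expression in haematopoietic and other tissues, was the most abundant D-type cyclin transcript per length in these cells. It fell from 3594 and 3708 normalized reads in WT to 1045 and 1423 in Mbd3abc KO. Both mutant libraries were below both WT libraries, and the means of 3651 ± 80.9 and 1234 ± 268 (SD, n = 2 each) differed 2.96-fold. The authors' deposited table gives a DESeq2 log2 fold change of -1.53 ± 0.21 (SE), with adjusted p = 3.48e-12. In Mbd3cΔN-ab KO the levels were 3411 and 3544 normalized reads in WT and 1313 and 2059 in the mutant. The fall from 3478 ± 94.2 to 1686 ± 528 (SD, n = 2 each) was 2.06-fold, and the groups did not overlap. There the authors' deposited DESeq2 log2 fold change was -0.98 ± 0.25 (SE), with adjusted p = 0.000533. These calls held in every refit, also without any 1 library. Ccnd3 was not listed in Mbd3ab KO, which does not show that it was unchanged.

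Per kilobase of the listed transcript, WT levels in the Mbd3abc KO table were 1852 normalized reads for Ccnd3, 474 for Ccnd1 and 79.5 for Ccnd2. The members therefore made up 77.0%, 19.7% and 3.30% of their summed level in WT. This order was the same in both mutants in which all 3 were listed. The sum per kilobase was 2405 ± 58.0 in WT and 815 ± 180 in Mbd3abc KO (SD, n = 2 each), 2.95-fold lower. In the Mbd3cΔN-ab KO table WT had 2291 ± 66.6 and the mutant 1144 ± 335 (SD, n = 2 each), a 2.00-fold difference. Most of the difference in the sum came from Ccnd3 and Ccnd1, because Ccnd2 was the least abundant member before its loss. The share of Ccnd2 in the sum was 0.0918% in Mbd3abc KO and 1.07% in Mbd3cΔN-ab KO.

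**Figure D2:**
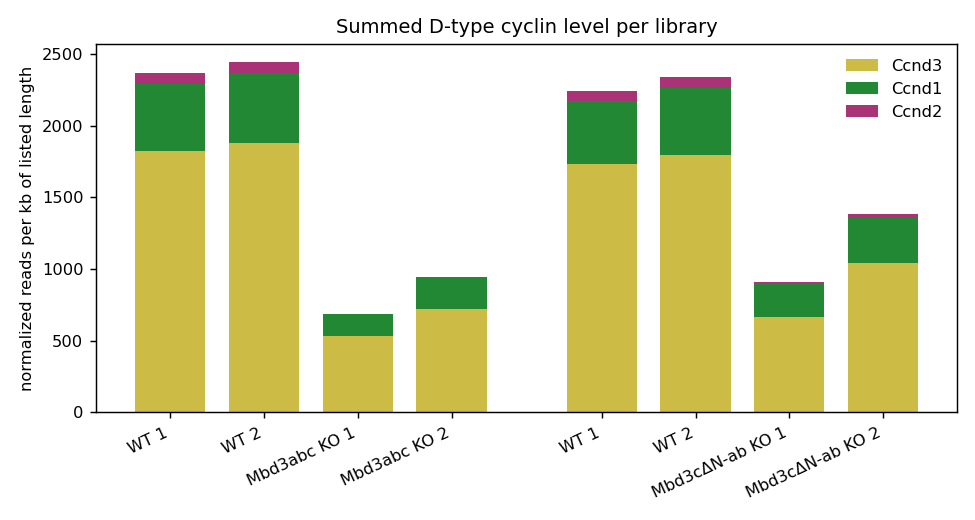
Stacked levels per kilobase (linear axis from 0) of the 3 D-type cyclins in each library of the Mbd3abc KO and Mbd3cΔN-ab KO tables, numbered in column order. Ccnd3 forms most of every bar, and the WT bars of 2364 to 2446 in the first table stand above the Mbd3abc KO bars of 687 and 943.

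In each of the 3 mutants the second library had the higher level of every listed member. The second WT library was also the higher one for every member. Over all genes the second library was the higher one for 45.5% in Mbd3ab KO, 53.9% in Mbd3abc KO and 58.0% in Mbd3cΔN-ab KO. For Ccnd1 the mutant libraries differed 1.18-fold in Mbd3ab KO, a size reached by 63.2% of genes there. The corresponding share was 24.2% for Ccnd1 and 27.3% for Ccnd3 in Mbd3abc KO, and 30.0% and 13.2% in Mbd3cΔN-ab KO. For Ccnd2 in Mbd3abc KO, where few reads remained, it was 6.34%, at a 1.97-fold difference. It was 0.229% in Mbd3ab KO and 0.0504% in Mbd3cΔN-ab KO, so Ccnd2 differed between libraries more than most genes in all 3 lines.

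The mutants were compared with each other with limma, on genes listed in both tables. For this comparison reads were divided by relative library totals and not by size factors. Normalized reads in this paragraph are on that scale. Ccnd1 was lower in Mbd3abc KO than in Mbd3ab KO, with 573 and 752 against 976 and 1081 normalized reads on a scale common to both tables. The log2 difference was -0.65 ± 0.20 (SE), with adjusted p = 0.0427 by limma, in a comparison where 31.9% of 370 genes passed. It was lost with edgeR and TMM scaling, at adjusted p = 0.237, with size factors chained through WT, at 0.0779, and without either WT library, either Mbd3ab KO library or the first Mbd3abc KO library, at 0.0680 to 0.154. Between Mbd3abc KO and Mbd3cΔN-ab KO, 5.56% of 5413 genes passed, and neither tested member did. Ccnd1 differed by -0.66 ± 0.18 on the log2 scale (SE; limma adjusted p = 0.0626) and Ccnd3 by -0.53 ± 0.21 (SE; limma adjusted p = 0.128), both lower in Mbd3abc KO. Without the second Mbd3abc KO library the Ccnd1 difference passed, at limma adjusted p = 0.0474. Between Mbd3cΔN-ab KO and Mbd3ab KO, where 1.42% of 353 genes passed, Ccnd1 differed by 0.01 ± 0.19 on the log2 scale (SE; limma adjusted p = 0.976). Ccnd2 had 11.7 and 122 normalized reads in Mbd3cΔN-ab KO against 2.69 and 26.4 in Mbd3ab KO on their common scale. These ranges overlap, and the log2 difference of 1.97 ± 1.15 (SE) had limma adjusted p = 0.451. Against Mbd3abc KO the Ccnd2 values are given without a test, and overlap between mutants was not counted over all genes. Ccnd2 had 2.98 and 5.52 normalized reads in Mbd3abc KO against 13.0 and 135 in Mbd3cΔN-ab KO, with no overlap. On the scale shared with Mbd3ab KO it had 2.79 and 5.17 in Mbd3abc KO against 2.80 and 27.5, with overlap.

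The partners, inhibitors and targets of the D-type cyclins were counted over lists of 92 genes. In Mbd3abc KO 65 were called, 37 higher and 28 lower, and in Mbd3cΔN-ab KO 55, 29 higher and 26 lower. Their median deposited log2 fold changes, 0.46 and 0.37, equalled those of all called genes. In Mbd3ab KO 6 of the 92 were called and in Mbd3c KO 1. These counts are 70.7%, 59.8%, 6.52% and 1.09% of the lists, against 52.1%, 41.5%, 3.35% and 0.353% of all genes tested. Of all called genes 47.9%, 49.1%, 38.7% and 10.5% were lower, in the same order of lines. Folds below are ratios of mean normalized reads (n = 2 each), and each rise or fall is a call in the authors' deposited table.

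Among the CDK partners, Cdk4, the catalytic partner of the D-type cyclins, fell 1.35-fold in Mbd3abc KO. Its libraries had 4149 and 4336 normalized reads in WT and 2920 and 3379 in the mutant. Cdk1, the mitotic kinase, rose 1.60-fold there and 1.45-fold in Mbd3cΔN-ab KO. Cdk6 and Cdk2 were not listed in any table. The INK4 gene Cdkn2a, which encodes an inhibitor of Cdk4 and Cdk6 among its products, rose from low levels in 3 lines. The rise was from 8.11 to 42.1 mean normalized reads in Mbd3ab KO (5.19-fold), 2.70-fold in Mbd3abc KO and 2.82-fold in Mbd3cΔN-ab KO. Reads counted per gene do not tell its products apart. The other INK4 genes were not listed. Of the CIP/KIP inhibitors, Cdkn1b (p27) rose 1.96-fold in Mbd3abc KO and 1.87-fold in Mbd3cΔN-ab KO, while Cdkn1c (p57) fell 1.60-fold in Mbd3cΔN-ab KO.

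All 3 pocket protein genes, whose products the cyclin D kinases phosphorylate, rose in Mbd3abc KO. Rb1 went from 106 and 106 normalized reads in WT to 1430 and 860, a 10.8-fold rise, Rbl2 rose 2.39-fold and Rbl1 rose 1.71-fold. In Mbd3cΔN-ab KO only Rb1 of the 3 was called, with 100 and 101 normalized reads in WT and 652 and 275 in the mutant, 4.60-fold higher, or 2.73-fold without the first mutant library. For Rb1 the first mutant library lay further from WT than the second in both lines. For the other pocket protein genes in Mbd3abc KO the second library lay further from WT. Rbl1 had 266 and 361 normalized reads there, and Rbl2 had 199 and 275. Of the 10 E2F and DP genes 5 were called in Mbd3abc KO, 4 higher and 1 lower, and 4 in Mbd3cΔN-ab KO, 3 higher and 1 lower. The activator E2f1 fell 1.72-fold and 1.48-fold in these lines. E2f5, which partners with pocket proteins, rose 2.23-fold and 2.01-fold, E2f6, a repressor, 1.95-fold and 1.46-fold, and the dimer partner Tfdp2 1.81-fold and 1.69-fold.

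Genes for S phase that E2F regulates were mostly lower: of 20 in the list, 16 were called in Mbd3abc KO, with 13 falls, and 15 in Mbd3cΔN-ab KO, with 12 falls. Their median deposited log2 fold changes were -0.82 and -0.55, against 0.46 and 0.37 over all called genes. The thymidine kinase Tk1 fell 2.96-fold in Mbd3abc KO and 2.19-fold in Mbd3cΔN-ab KO, and the replicative helicase subunit Mcm5 fell 2.04-fold and 2.06-fold. Mcm3 fell 1.94-fold and 1.45-fold in these lines, and the transcription factor gene Mybl2 fell 1.85-fold and 1.90-fold.

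Of the other cyclins that were called, more rose than fell. Of all called genes 47.9% were lower in Mbd3abc KO and 49.1% in Mbd3cΔN-ab KO. Of the 7 E, A and B cyclins 5 rose and 1 fell in Mbd3abc KO, and 3 rose and 1 fell in Mbd3cΔN-ab KO. The G1/S cyclins Ccne1 and Ccne2, which activate Cdk2, changed in opposite directions. Ccne1 had 2308 and 2377 normalized reads in WT and 759 and 1330 in Mbd3abc KO, a 2.24-fold fall, and it fell 1.93-fold in Mbd3cΔN-ab KO. Ccne2 had 59.2 and 44.0 in WT and 312 and 325 in Mbd3abc KO, a 6.17-fold rise, with a 3.43-fold rise in Mbd3cΔN-ab KO. Ccnb2, a mitotic cyclin, rose 1.91-fold and 1.68-fold. Ccna1, a germline cyclin, was called higher in both lines from 2 WT reads in all, so no fold is given. Of 16 further cyclins 12 rose and 2 fell in Mbd3abc KO, and 11 rose and 2 fell in Mbd3cΔN-ab KO. Ccng1, a p53 target, rose 8.37-fold (5.30-fold without the first Mbd3abc KO library) and 4.28-fold, Ccnc, of the Mediator kinase module, 4.47-fold and 2.92-fold, and Ccnh, of the CDK-activating kinase, 2.98-fold and 2.46-fold. Ccno fell 13.3-fold in Mbd3cΔN-ab KO, 8.01-fold without the first mutant library and 39.3-fold without the second, and was called lower in Mbd3abc KO, where 3 reads remained in both libraries together.

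**Figure D3:**
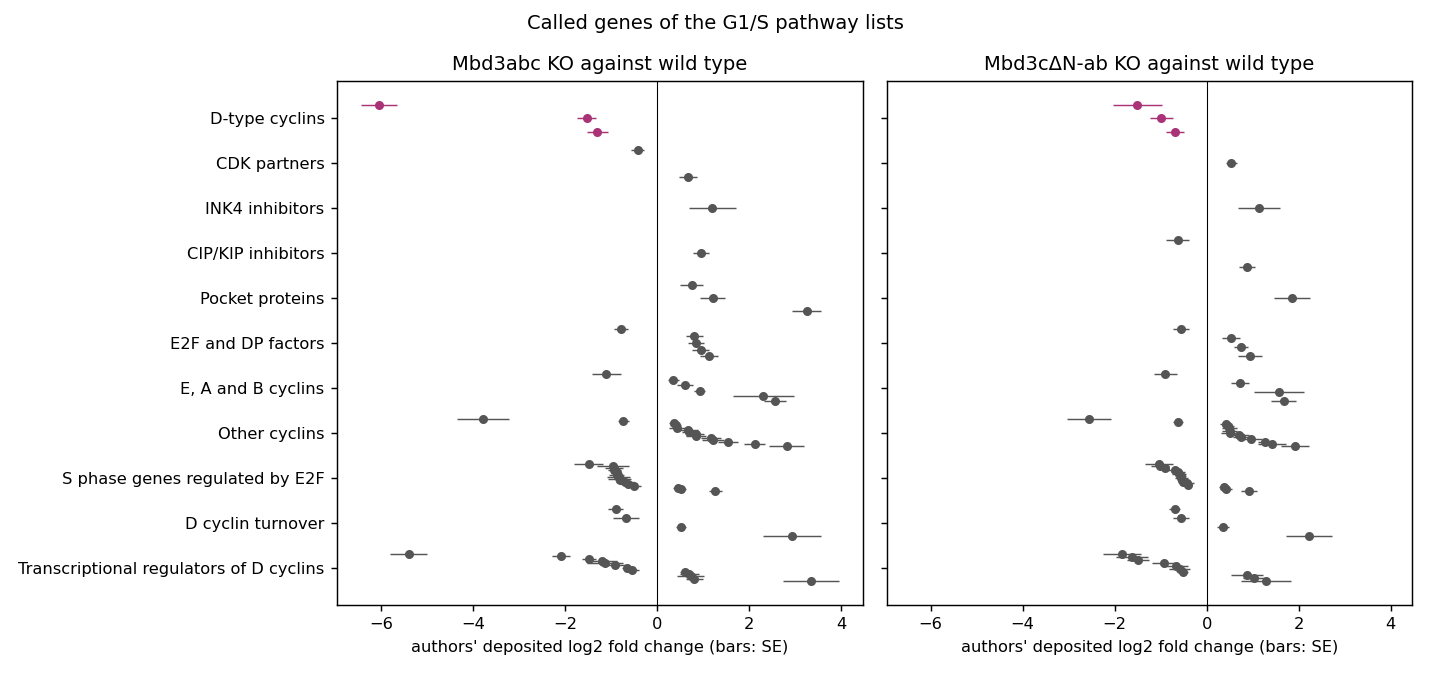
Authors' deposited log2 fold changes (points, with SE as bars) of every called gene in the cell cycle lists, 1 row per list, in Mbd3abc KO and Mbd3cΔN-ab KO. The 3 D-type cyclins, in the top row, all lie left of 0, the pocket proteins lie right of 0, and the S phase genes lie mostly left of 0.

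Genes for factors known to regulate D-type cyclin transcription or turnover changed in both directions. Of the 20 transcriptional regulators 5 rose and 8 fell in Mbd3abc KO, 3 rose and 7 fell in Mbd3cΔN-ab KO, 2 rose and 2 fell in Mbd3ab KO, and 1 rose in Mbd3c KO. Lef1, the Wnt effector, had 297 and 319 normalized reads in WT and 3.86 and 5.73 in Mbd3abc KO, from 4 and 6 reads, a 64.3-fold fall. It fell 7.55-fold in Mbd3ab KO, 4.91-fold without the first mutant library and 16.3-fold without the second. The 4.72-fold fall in Mbd3cΔN-ab KO was 8.71-fold without the second mutant library. The N-myc gene Mycn fell 2.25-fold in Mbd3ab KO and 2.99-fold in Mbd3cΔN-ab KO. In Mbd3abc KO Mycn fell 2.35-fold, or 3.73-fold without the second mutant library. Gli1, the Hedgehog effector, fell 4.37-fold in Mbd3abc KO and 3.60-fold in Mbd3cΔN-ab KO, or 5.63-fold without the second library of the latter. Foxo4, of the forkhead family, fell 2.82-fold in Mbd3abc KO and 1.99-fold in Mbd3cΔN-ab KO. The AP-1 gene Fosl1 had 6 WT reads in all and rose 27.8-fold in Mbd3abc KO, where leaving out 1 library gave 15.6-fold to 58.0-fold. In Mbd3cΔN-ab KO its libraries stood at 39.7 and 6.78 normalized reads, a 9.08-fold rise that was 2.65-fold without the first of them. The AP-1 gene Fos was the only one called in Mbd3c KO, where no D-type cyclin was listed, at 5.50-fold higher. The cytokine effectors Stat5a and Stat5b rose 2.10-fold and 2.05-fold in Mbd3ab KO, and 2.12-fold and 1.99-fold in Mbd3cΔN-ab KO. Stat5b also rose 1.76-fold in Mbd3abc KO.

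Of the 5 genes of D-type cyclin turnover 4 were called in Mbd3abc KO and in Mbd3cΔN-ab KO, 2 in each direction. Ambra1, the substrate receptor that targets D-type cyclins for degradation, fell 1.89-fold and 1.63-fold, and the F-box gene Fbxo31, with the same class of target, fell 1.63-fold and 1.48-fold. Gsk3b, a kinase that phosphorylates cyclin D1 before its export and degradation, rose 1.44-fold and 1.28-fold. Cryab, a small heat shock protein, had 9 WT reads in all and rose 8.83-fold in Mbd3ab KO. It rose 19.0-fold in Mbd3abc KO, 7.67-fold without the first mutant library and 30.3-fold without the second, and 10.5-fold in Mbd3cΔN-ab KO, 6.43-fold without the first. Protein levels were not measured.

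In Mbd3abc KO and Mbd3cΔN-ab KO the share of lower genes rose with transcript GC content over windows around the 3 members. Of all called genes with a GC value, 48.0% were lower in Mbd3abc KO, 49.2% in Mbd3cΔN-ab KO and 38.8% in Mbd3ab KO. Ccnd2 has 47.1% GC, Ccnd1 50.9% and Ccnd3 59.7%. Among called genes within 1 percentage point of Ccnd3, 91.1% were lower in Mbd3abc KO and 95.3% in Mbd3cΔN-ab KO, and 98 of 462 and 133 of 383 fell at least as much as Ccnd3. Around Ccnd1 61.3% and 65.2% were lower, and 89 of 705 and 135 of 443 fell at least as much. Around Ccnd2 only 25.3% and 19.4% were lower, and its own place among them is set by its selection. In Mbd3ab KO 53.3% were lower around both Ccnd1 and Ccnd2. The part of GC content in the values of the 3 members was not tested.

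**Figure D4:**
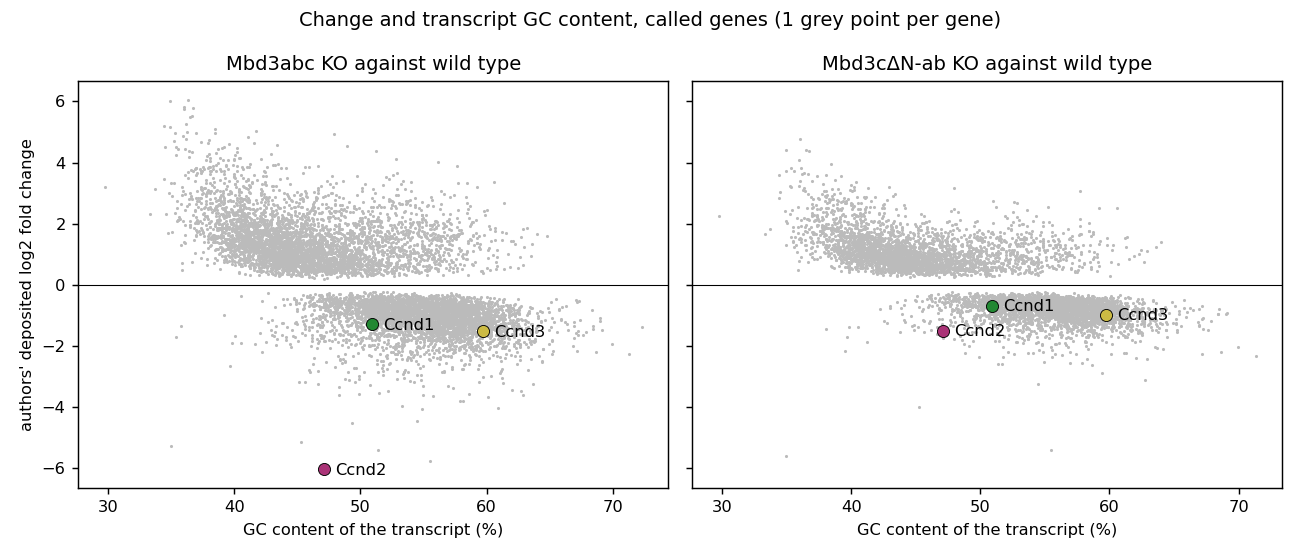
Authors' deposited log2 fold change against transcript GC content (%) of called genes, 1 grey point per gene, with the D-type cyclins marked. Genes of high GC content lie mostly below 0, Ccnd3 at 59.7% GC sits inside that group, and Ccnd2, selected for its low value in Mbd3abc KO, is marked at 47.1%.

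Cell type markers were counted in the same way. Of all genes tested, 52.1% were called in Mbd3abc KO (24.9% lower, 27.1% higher). In Mbd3cΔN-ab KO 41.5% were called (20.4% lower, 21.1% higher). Nothing is read from the marker counts against these shares. Eomes is in both the trophectoderm and the mesoderm list. Of 10 embryonic stem cell markers 7 were called in Mbd3abc KO, 2 higher and 5 lower, and 5 in Mbd3cΔN-ab KO, 1 higher and 4 lower. The pluripotency factor Pou5f1 had 10868 and 11648 normalized reads in WT and 2816 and 4647 in Mbd3abc KO. It fell, with an authors' deposited log2 fold change of -1.52 ± 0.29 (SE), and stayed well detected. Tdh (-1.85 ± 0.25), Utf1 (-1.29 ± 0.14), Esrrb (-0.92 ± 0.11) and Fgf4 (-0.76 ± 0.24) were called lower there too. Klf4 and Sox2 were the 2 called higher, with authors' deposited log2 fold changes of 0.95 ± 0.18 and 0.48 ± 0.15 (SE). The order of the mutant libraries differed among these markers. The second was the higher one for Pou5f1, and the first was for Fgf4, with 1607 and 1120 normalized reads. The summed called embryonic stem cell markers ranged from 45083 to 45114 in WT and from 24735 to 26848 in Mbd3abc KO. Of 8 trophectoderm markers 4 were called in Mbd3abc KO, 3 higher and 1 lower, with a sum of 300 to 368 in WT and 958 to 1715 in the mutant. In the other tables this sum includes the trophectoderm gene Tfap2c, not listed in Mbd3abc KO, and it was 1254 to 1261 in WT against 1114 to 1186 in Mbd3ab KO, and 1256 to 1286 in WT against 811 to 888 in Mbd3cΔN-ab KO. Of 8 primitive endoderm markers 2 were higher and 1 lower, with a sum of 3230 to 3712 in WT and 2458 to 3240 in the mutant. Of 7 neuroectoderm markers 1 was higher and 4 lower, of 6 mesoderm markers 2 were higher, and of 8 fibroblast markers 1 was higher and 2 lower. No level is known for markers outside the tables. The part of these markers in the D-type cyclin values was not tested.

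Genes starting within 500 kb of each member were taken in order of distance. The annotation has 12 protein-coding genes in this window around Ccnd1, 11 around Ccnd2 and 20 around Ccnd3. The listed genes below were not limited to protein-coding ones. Of all genes tested, 52.1% were called in Mbd3abc KO (24.9% lower) and 41.5% in Mbd3cΔN-ab KO (20.4% lower). Unlisted neighbours have no value, and nothing is read from the counts against these shares. Around Ccnd3 all 7 genes listed fell in Mbd3abc KO, and all 5 listed fell in Mbd3cΔN-ab KO. The nearest, Bysl, a ribosome biogenesis gene 18.0 kb away, fell 2.33-fold and 1.89-fold, and the deubiquitinase gene Usp49, 37.2 kb away, fell 1.41-fold and 1.47-fold. Around Ccnd1 6 of the 7 listed fell in Mbd3abc KO and 3 of 3 fell in Mbd3cΔN-ab KO. The nearest were the growth factor genes Fgf4, 78.5 kb away, which fell 1.72-fold in Mbd3abc KO, and Fgf3, 101 kb away, which fell 4.47-fold from a mean of 15.1 normalized reads, or 7.88-fold without the first mutant library. In Mbd3cΔN-ab KO the nearest listed were Tpcn2, 344 kb away and 1.71-fold lower, and Fadd, 357 kb away and 1.86-fold lower. Around Ccnd2 only 3 were listed in Mbd3abc KO, 2 higher and 1 lower, and 2 in Mbd3cΔN-ab KO, 1 in each direction. Rad51ap1, a recombination gene 211 kb away, rose 1.97-fold and 1.57-fold, and Ndufa9, of mitochondrial complex I, 302 kb away, fell 1.65-fold and 1.43-fold. None of these neighbours was listed in Mbd3ab KO, where Ccnd1 and Ccnd2 were.

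**Figure D5:**
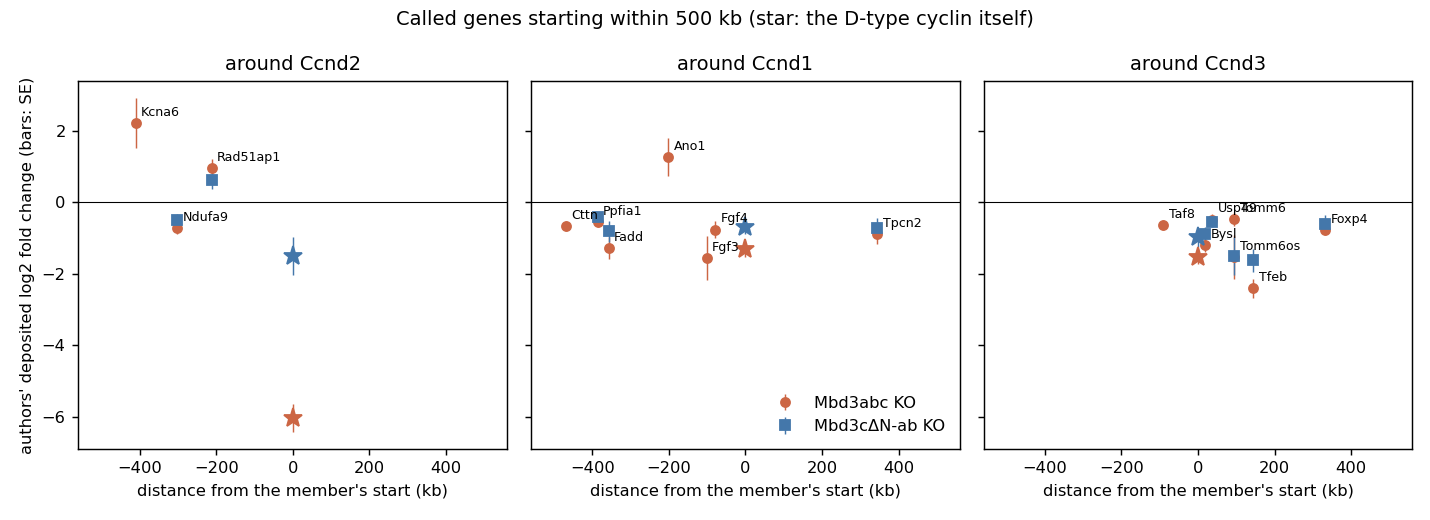
Authors' deposited log2 fold changes (points, with SE as bars) of called genes starting within 500 kb, against the distance in kb from the start of each D-type cyclin, which is drawn as a star. The points around Ccnd3 all lie below 0, and those around Ccnd2 lie on both sides of 0.

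For each member the genes of most similar pattern were sought among genes listed in the same tables. The measure was the Euclidean distance between log2 ratios of each mutant library to mean WT. For Ccnd1, over 6 mutant libraries and 296 genes, the closest were Cyb5r3, Phlda2, Vps8, Trim26 and Etv6, at distances of 0.302 to 0.493. Cyb5r3, a cytochrome b5 reductase gene, was 1.55-fold, 2.38-fold and 1.54-fold lower in Mbd3ab KO, Mbd3abc KO and Mbd3cΔN-ab KO, against 1.67-fold, 2.52-fold and 1.63-fold for Ccnd1. For Ccnd3, over 4 mutant libraries and 4882 genes, they were Fdxr, Ruvbl2, Syngr3, Tomm40l and Dtd1, at 0.120 to 0.176. Ruvbl2, for an ATPase of chromatin remodelling complexes, was 3.03-fold and 2.08-fold lower in Mbd3abc KO and Mbd3cΔN-ab KO, against 2.96-fold and 2.06-fold for Ccnd3. For Ccnd2, over the same 296 genes as for Ccnd1, the closest were Lef1, Fgf17, Vrtn, Dppa3 and Car14, at distances of 4.01 to 5.34. These distances include the Mbd3abc KO libraries, where Ccnd2 was selected and rests on 3 and 6 reads.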

How the data were processed

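Total RNA of 10 libraries was depleted of ribosomal RNA and made into strand-specific libraries, per the labels' protocols. The submitters' processing notes name TopHat2, HOMER and DESeq2 and the build mm10, without versions. The authors deposited 1 table per mutant, holding selected genes: 443 (Mbd3ab KO), 38 (Mbd3c KO), 8141 (Mbd3abc KO) and 6000 (Mbd3cΔN-ab KO). For each library the authors deposited a signal, reads scaled so that libraries of a table have equal totals. Per the file headers, DESeq2 gave the deposited log2 fold change with its SE and the p-value with its adjusted form. The Wald statistic, a score the authors deposited, was not used.

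Dividing the signal by what 1 read is worth in its library gave whole numbers (100% within 0.01), taken as reads. Size factors were found by regressing the deposited mean level on the reads, and normalized reads are reads divided by them. Folds are ratios of group means, given where each group had over 3 reads. The number of genes tested (13201, 10759, 15622 and 14429, in the order above) was recovered from p-values and adjusted p-values.

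Calls are the authors', at adjusted p under 0.05. The listed genes were refitted with limma 3.58.1 on log2(normalized reads + 1), edgeR 4.0.16 (quasi-likelihood) and DESeq2 1.42.0, with p-values adjusted over the recovered number of genes tested; leaving out a library used DESeq2, on the assumption that a lone library varies as much as the other groups. These refits take their spread from selected genes. Mutants were compared with limma on genes listed in both tables. There reads were divided by library totals relative to the first WT library, which puts both tables on 1 scale. Scripts were tested on simulated data in R 4.3.3 and Python 3.11.15. Other alternatives were a threshold of 0.01, a minimum fold of 2, genes above the median level, equal-total scaling, pseudocounts of 1 and 5, a mean level of at least 50, TMM scaling, a correlation in place of the distance, and, chosen after seeing the data, folds of pathway and neighbouring genes without each library.

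Columns could be assigned to groups and not to replicate numbers; first and second library mean column order. The members and the gene lists were chosen with earlier results of these data known. Named genes are, besides the members, up to 4 called genes per list and table with the largest deposited log2 fold change, the nearest 2 listed neighbours within 500 kb of each member, and the 5 genes of most similar pattern, of those with at least 10 mean WT reads. Pou5f1, Tdh, Utf1, Esrrb, Klf4, Sox2, Tfap2c, Eomes, Rnh1 and Mbd3 fall outside this rule and were chosen after their values were seen. Not every gene that the rule names is reported here. Sequences are from GENCODE M21 and RefSeq (GRCm38.p6).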

Additional observations from a re-analysis of the deposited data

Results flagged for a closer look

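Ccnd1 differed between mutants in its change from wild type. On reads scaled by library totals it was lower in Mbd3abc KO than in Mbd3ab KO by a log2 difference of -0.65 (limma adjusted p = 0.0427). In this comparison 31.9% of 370 genes passed. Both Mbd3abc KO libraries lay below both Mbd3ab KO libraries, a separation not counted over all genes. The call was lost with edgeR (difference -0.47, adjusted p = 0.237), with chained size factors (0.0779) and in 5 of 6 fits without 1 library, with adjusted p up to 0.154. Groups of 2 libraries are too small to single out an outlying library.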

How the results depend on the processing

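With 2 libraries per group each value rests on few samples. No paired analysis was possible because the columns carry no replicate numbers. In Mbd3abc KO Ccnd1 and Ccnd3 were called under each alternative run, and in Mbd3c KO no member was listed.

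In Mbd3ab KO the 2 called members became 1 when a 2-fold change was required, 1 among genes of above-median level, 0 with limma and 0 with edgeR, and 1 to 2 without 1 library. limma and edgeR called 0 of all genes there, with 443 at an unadjusted p under 0.05 in each, and DESeq2 called 239, against 442 by the authors. In Mbd3cΔN-ab KO the 3 called members became 1 when a 2-fold change was required, 2 at an adjusted p of 0.01, 2 among genes of above-median level, 2 with DESeq2, and 1 to 3 without 1 library. With DESeq2 and without either WT library Ccnd2 was not called, while limma and edgeR on all libraries called it. The counts in both lines include Ccnd2, whose calls are given as a description and not as a test.

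Over all genes, requiring a 2-fold change left 257 calls in Mbd3ab KO, 4875 in Mbd3abc KO and 2428 in Mbd3cΔN-ab KO, and genes above the median level numbered 221, 4066 and 2997. Without 1 library DESeq2 called 7 to 284, 3515 to 5503 and 1624 to 3800. In Mbd3c KO 24 of 38 calls passed 0.01, 19 lay above the median level, limma called 0 (38 at an unadjusted p under 0.05), edgeR 28 and DESeq2 26, and 2 to 34 without 1 library. These filters leave fewer genes or samples by construction.

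The count of tested members past the threshold between Mbd3abc KO and Mbd3ab KO, 1, became 0 with edgeR and TMM, 0 with chained size factors and 0 to 1 without 1 library, where 47 to 123 genes passed, against 118. Between Mbd3abc KO and Mbd3cΔN-ab KO it was 0, and 0 to 1 without 1 library, where 11 to 248 genes passed, against 301. Between Mbd3cΔN-ab KO and Mbd3ab KO edgeR called 0 genes against 5 by limma, with 44 and 58 at an unadjusted p under 0.05. There the Ccnd1 difference changed sign, from 0.01 to a range of -0.16 to 0.19, without 1 library. Each set of 5 genes of most similar pattern shared 1 gene with the set found by correlation. The cause of these changes was not tested.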
